A study of Homo sapiens with 48 samples.

Results

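Oci-Ly18 is a human lymphoma cell line that the labels place in the germinal centre class of diffuse large B cell lymphoma (GCB-DLBCL). The comparison described here sets 3 libraries of Oci-Ly18 cells grown with the EZH2 inhibitor GSK343 (EZH2i) against 3 libraries of the same line grown with the DOT1L inhibitor EPZ-5676 (DOT1Li), which is 6 of the 48 RNA sequencing libraries of the study. Cells were kept in inhibitor for 6 days and were reseeded with fresh inhibitor on day 3; no dose is stated in the labels. Oci-Ly18 cells with the vehicle DMSO (3 libraries) show from which side a difference comes, and the same pair of treatments in the lines Oci-Ly7, Oci-Ly8 and SUDHL6 (6 libraries each) shows where Oci-Ly18 stands apart. Oci-Ly18 cells with both inhibitors were sequenced too. All genes of the count table were compared: 17749 of 37706 had enough counts to be tested, 13502 of them protein coding. The labels do not say whether the 3 libraries of a group are separate cultures. A p-value here reflects only the spread of libraries within their groups, estimated over all 48 libraries of the study.

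EZH2 is the enzyme of Polycomb repressive complex 2 (PRC2): it methylates lysine 27 of histone H3 and so silences genes. DOT1L methylates lysine 79 of histone H3 in the bodies of transcribed genes. Germinal centre B cells depend on EZH2, which holds plasma cell and cell cycle exit genes silent while BCL6 directs the germinal centre state. When B cells leave that state, IRF4, PRDM1 and XBP1 drive plasma cell differentiation.

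The 6 libraries held 11952918 to 15942400 counts, and 21124 to 21936 genes had a count in them. Over the 48 libraries totals ran from 5174269 to 18845074 counts. The summed level of 4 B cell markers (MS4A1, CD79A, CD79B and PAX5) was 1610 to 1670 CPM (counts scaled to the library total, with TMM factors) with EZH2i and 1370 to 1460 with DOT1Li, against 1440 to 1490 with DMSO, so the B cell label holds in every library. Of 5 germinal centre markers BCL6, MME and MYBL1 were well expressed, LMO2 lay at 0.604 to 1.41 CPM with EZH2i and 2.0 to 2.87 CPM with DOT1Li, and SERPINA9 had too few counts to be tested (13 with EZH2i and 8 with DOT1Li in all). On principal components of the 12 Oci-Ly18 libraries, EZH2i lay at 13.54 to 14.50 and DOT1Li at -11.92 to -11.45 on the first (61.4% of the variance), with DMSO at -35.53 to -33.21. On the second (21.1%) EZH2i lay at -22.57 to -21.36 and DOT1Li at 15.81 to 18.75, on opposite sides of DMSO at -6.17 to -4.47. Replicate 1 of the combination lay apart from the other combination libraries, at 23.41 against 37.06 and 37.26 on the first component, and 2 Oci-Ly8 libraries were low in long transcripts. Both touch the values below through the shared filter, scaling and estimate of spread. The Oci-Ly8 libraries also enter the comparison between lines.

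The direct comparison asks which transcripts the inhibitors set to different levels. With EZH2i 1888 genes were higher than with DOT1Li (10.6% of those tested) and 1506 were lower (8.48%; edgeR's quasi-likelihood test, adjusted p under 0.05). By 2-fold or more 485 were higher (2.73%) and 483 lower (2.72%), and over all genes the log2 fold change had a median of 0. The 2 sets of 3 libraries did not overlap for 3626 genes with EZH2i above (20.4%) and 3208 with EZH2i below (18.1%). Among protein-coding genes 1786 were higher and 1304 lower, whereas among 2669 long noncoding RNAs tested 67 were higher and 162 lower. Large differences were mostly in sparsely expressed genes: the 485 genes higher by 2-fold or more had a median of 3.35 CPM with EZH2i and 1.14 with DOT1Li, and the 483 lower genes 0.721 and 2.26 CPM, against 11.2 and 10.7 over all genes tested. In bulk RNA, fewer cells with a transcript and less of it per cell cannot be told apart. Against DMSO, EZH2i left 2301 genes higher (13%) and 1605 lower (9.04%), and DOT1Li left 716 higher (4.03%) and 376 lower (2.12%); the last count was 236 without DOT1Li replicate 1 and 250 without DMSO replicate 2. These comparisons share libraries with the direct one, so their values are only given beside it.

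**Figure D1:**
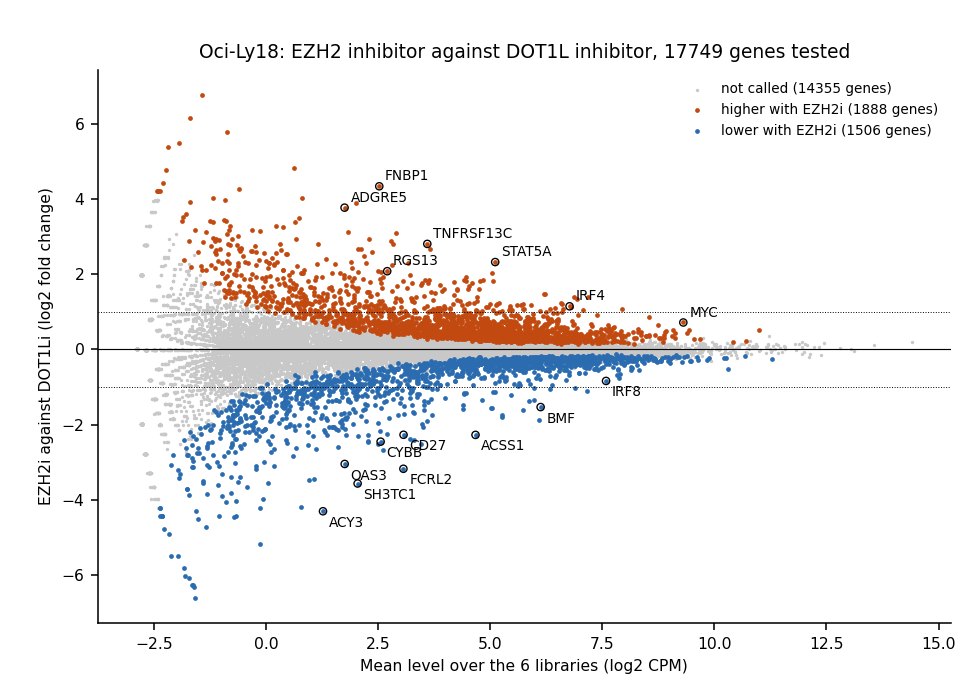
Each point is a gene; the horizontal axis is its mean level over the 6 libraries (log2 CPM) and the vertical axis its log2 fold change, EZH2i over DOT1Li, with red for the 1888 genes called higher, blue for the 1506 called lower, grey for the others and dotted lines at 2-fold. The largest differences lie at low levels, and the curved edge at the far left is made of genes without counts in 1 of the groups, whose fitted fold changes depend on the prior count.

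The 10 genes highest with EZH2i (protein coding, average log2 CPM of at least 1, groups not overlapping) were all above DMSO with EZH2i, and averaged 0.781 to 4.56 CPM with DOT1Li. FNBP1, a membrane-bending protein (chromosome 9, positions 129887187 to 130043194, GRCh38), had 22.5, 28.5 and 23.4 CPM with EZH2i, 1.19, 1.43 and 1.04 CPM with DOT1Li and 0.979, 1.51 and 0.841 CPM with DMSO. INF2, an actin-assembling formin, had 13.9, 14.3 and 16.1 CPM with EZH2i, 0.629, 0.826 and 1.60 with DOT1Li and 0.571, 0.796 and 0.35 with DMSO. ADGRE5, the adhesion receptor CD97, had 9.57, 13.3 and 11.9 CPM with EZH2i, 0.769, 0.976 and 0.798 with DOT1Li and 0.571, 0.875 and 0.911 with DMSO. In all 3 genes the EZH2i libraries stood far above those with DOT1Li and DMSO, which overlapped. Their log2 fold changes, EZH2i over DOT1Li, were 4.34 ± 0.30, 3.88 ± 0.26 and 3.77 ± 0.26 (SE; edgeR, adjusted p = 6.65e-14, 4.68e-15 and 1.23e-15).

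B cell surface receptors were among these 10. TNFRSF13C, the receptor for the survival factor BAFF, had 31.9, 33.2 and 30.7 CPM with EZH2i, against 5.17, 3.23 and 5.27 CPM with DOT1Li and 4.08, 5.33 and 4.77 with DMSO (log2 fold change over DOT1Li 2.81 ± 0.17 SE; edgeR, adjusted p = 2.67e-16). FCER2, the low-affinity IgE receptor CD23, had 20.2, 17.7 and 17 CPM with EZH2i and 2.66, 2.10 and 2.71 CPM with DOT1Li, against 0.897, 0.716 and 1.05 with DMSO. FCER2 rose with both inhibitors against DMSO, by 4.34 on the log2 scale with EZH2i and 1.47 with DOT1Li (edgeR, adjusted p = 5.34e-14 and 0.0327). The collagen-folding isomerase FKBP10 followed the same order, at 9.93 ± 0.485 CPM with EZH2i, 1.14 ± 0.296 with DOT1Li and 0.354 ± 0.0957 with DMSO (mean ± SD, n = 3 each). The others were the myosin MYO1E, the lipid transporter ABCA2, RNF208 and the actin-binding AIF1L, with log2 fold changes over DOT1Li from 2.80 to 3.08.

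The 10 lowest genes came from both sides. ACY3, an aminoacylase, had 0.604, 0.593 and 0.326 CPM with EZH2i and 12.9, 11.6 and 5.11 with DOT1Li, against 0.408, 0.637 and 0.491 with DMSO. Here EZH2i overlapped with DMSO and DOT1Li stood above both: against DMSO the log2 fold change was -0.04 with EZH2i (edgeR, adjusted p = 1) and 4.26 with DOT1Li (adjusted p = 8.58e-12). FCRL2, an Fc receptor-like protein of B cells, had 2.16, 3.41 and 2.61 CPM with EZH2i and 24.9, 25.4 and 24.1 with DOT1Li, against 19, 21.3 and 22.6 with DMSO. FCRL2 fell with EZH2i by 2.94 on the log2 scale against DMSO (edgeR, adjusted p = 7.4e-14), and its change of 0.24 with DOT1Li did not pass the test (adjusted p = 0.579). SH3TC1 moved both ways, at 1.13 ± 0.329 CPM with EZH2i and 13.9 ± 3.85 with DOT1Li, against 3.71 ± 1.76 with DMSO (mean ± SD, n = 3 each). Against DMSO it fell with EZH2i by 1.70 and rose with DOT1Li by 1.87 in log2 units (edgeR, adjusted p = 0.00254 and 5.99e-06). The sarcomere protein MYOM2 and the interferon-induced helicase DDX60 moved both ways too, and DEPP1 and the collagen chain COL1A2 rose with DOT1Li without a called change with EZH2i. OAS3, GBP1 and CYBB complete the 10 and are described with their gene groups.

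**Figure D2:**
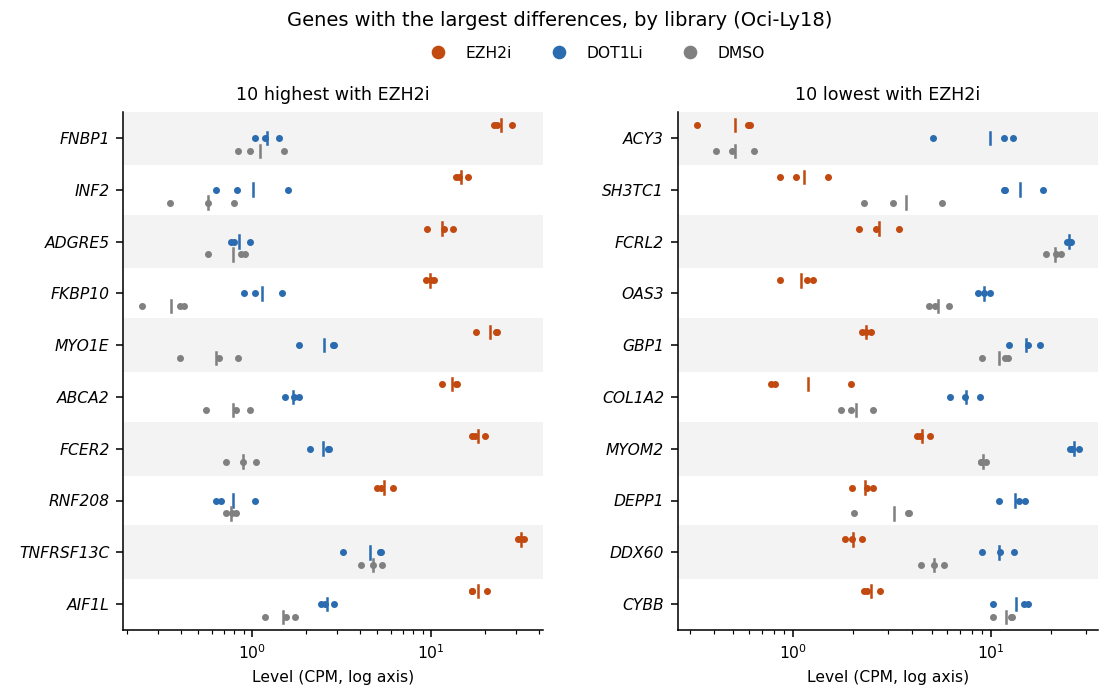
Levels (CPM, log axis) of the 10 genes with the highest and the 10 with the lowest log2 fold change, EZH2i over DOT1Li; points are libraries, ticks are group means, and each gene has EZH2i, DOT1Li and DMSO from top to bottom. On the left EZH2i stands alone for most genes, with FNBP1 averaging 24.8 CPM against 1.22 with DOT1Li, and on the right some genes have DOT1Li above DMSO (ACY3) and others EZH2i below it (FCRL2).

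By adjusted p rather than size, the leading genes were STAT5A and ACSS1, named here after their values were seen. STAT5A, a transcription factor activated by cytokine receptors, had 84.2, 72.9 and 74.9 CPM with EZH2i and 16.8, 13.7 and 15.7 with DOT1Li, against 23.8, 21.6 and 22.4 with DMSO (log2 fold change over DOT1Li 2.32 ± 0.12 SE; edgeR, adjusted p = 7.82e-21). It rose with EZH2i and fell with DOT1Li against DMSO, by 1.77 and by 0.55 in log2 units (edgeR, adjusted p = 2.33e-17 and 0.00204). Its neighbour STAT5B showed the same order, at 168, 169 and 158 CPM with EZH2i and 76.4, 70.2 and 79.9 with DOT1Li, against 114, 114 and 120.2 with DMSO. ACSS1, a mitochondrial acetyl-CoA synthetase, ran the other way with 12.3, 11.8 and 10.5 CPM with EZH2i and 55.5, 56.1 and 55.6 with DOT1Li, against 36, 33.8 and 38.6 with DMSO (log2 fold change over DOT1Li -2.27 ± 0.10 SE; edgeR, adjusted p = 7.82e-21). In all 3 genes the DMSO libraries lay between the inhibitors without overlap.

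Plasma cell genes leaned to EZH2i. Of 30 list members tested 15 were higher with EZH2i than with DOT1Li and 3 lower, against 10.6% and 8.48% of all genes, the shares to set beside each list's counts, and the median log2 fold change was 0.25 against 0 over all genes. The count of higher members was 10 to 15 with each library left out in turn. IRF4, which drives exit from the germinal centre, had 159.5, 166 and 161 CPM with EZH2i and 72.3, 73 and 75 with DOT1Li, against 104, 90.3 and 93.3 with DMSO (log2 fold change over DOT1Li 1.15 ± 0.13 SE; edgeR, adjusted p = 1.53e-08). XBP1, the transcription factor of the secretory programme, had 137, 129 and 119.9 CPM with EZH2i and 60.3, 60.6 and 57.9 with DOT1Li, against 66.3, 70.3 and 61.5 with DMSO (1.11 ± 0.12 SE; adjusted p = 2.54e-09). For both, the EZH2i libraries lay above all others, and neither change of DOT1Li against DMSO passed the test (IRF4 -0.38, adjusted p = 0.0896; XBP1 -0.15, adjusted p = 0.664). ERN1, the stress sensor IRE1 that splices XBP1 mRNA, was higher by 1.28 ± 0.13 on the log2 scale (SE; edgeR, adjusted p = 1.17e-10), and the BCMA gene TNFRSF17 and the secretory factors FKBP11 and CREB3L2 were higher too, by 1.56, 0.72 and 1.04.

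PRDM1, the repressor Blimp-1 that drives plasma cell differentiation, did not separate the inhibitors. It had 9.66, 12.4 and 9.78 CPM with EZH2i and 13.7, 11.3 and 10.1 with DOT1Li, against 6.69, 5.65 and 4.35 with DMSO. The inhibitors overlapped (-0.14 ± 0.24 SE; edgeR, adjusted p = 0.77) and both stood above DMSO, by 0.94 and 1.09 on the log2 scale (adjusted p = 0.0085 and 0.00684). The antibody-joining JCHAIN did not pass the test either (0.22, adjusted p = 0.504). The 3 lower members were CD27, CD38 and DERL3, and CD38 (edgeR, adjusted p = 0.0194) lost the call without DOT1Li replicate 2 or 3 or EZH2i replicate 1. CD27, a receptor of memory B cells and plasma cells, had 4.31, 3.26 and 3.72 CPM with EZH2i and 18.5, 16.3 and 19.5 with DOT1Li, against 21.9, 20.1 and 25.9 with DMSO, so that EZH2i stood alone below the others (log2 fold change over DOT1Li -2.27 ± 0.16 SE; edgeR, adjusted p = 1.12e-15). SDC1, the plasma cell surface marker CD138, was above DMSO with both inhibitors, by 1.12 with EZH2i and 0.70 with DOT1Li in log2 units (edgeR, adjusted p = 1.44e-08 and 0.000363), and its difference of 0.42 between them (adjusted p = 0.0111) came from overlapping libraries and lost the call without DOT1Li replicate 1 or 2 or EZH2i replicate 3.

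Genes that mark B cells or the germinal centre were split. Of 25 pan-B cell genes 12 were higher with EZH2i and 6 lower, with a median log2 fold change of 0.27, and of 31 germinal centre genes 7 were higher and 9 lower, with a median of -0.02, against 10.6% higher and 8.48% lower over all genes. BCL6 had 149, 132 and 143 CPM with EZH2i and 114, 102 and 109.6 with DOT1Li, both below 188, 161 and 188 with DMSO. The fall against DMSO was 0.34 with EZH2i and 0.72 with DOT1Li in log2 units (edgeR, adjusted p = 0.0401 and 8.2e-05), and the difference of 0.38 ± 0.12 SE between inhibitors (adjusted p = 0.0239) was no longer called without DOT1Li replicate 2 or 3 or without EZH2i replicate 1 or 3. Among germinal centre genes higher with EZH2i, the ubiquitin ligase adaptor KLHL6 had 128, 125 and 120.3 CPM with EZH2i and 44.9, 44.6 and 46.1 with DOT1Li, against 59.3, 61 and 63.1 with DMSO (log2 fold change over DOT1Li 1.46 ± 0.10 SE; edgeR, adjusted p = 1.23e-15). RGS13, which dampens chemokine receptor signalling, was higher by 2.08 ± 0.23 and the transcription factor MEF2C by 0.84 ± 0.10 on the log2 scale (SE; adjusted p = 2.09e-09 and 9.63e-09). Lower with EZH2i were GCSAM (HGAL), at 83.9, 88.6 and 77.9 CPM with EZH2i and 179.6, 169 and 164 with DOT1Li, and the transcription factor IRF8, at 149.5, 143 and 139 CPM with EZH2i and 254, 259 and 258 with DOT1Li. With DMSO GCSAM had 182, 178 and 174 CPM and IRF8 265, 296 and 314 CPM, and both fell against DMSO with EZH2i, by 1.09 and 1.02 in log2 units (edgeR, adjusted p = 7.72e-09 and 1.22e-08). The adaptor STAP1 (-1.02) and the DNA glycosylase NEIL1 (-1.14) were lower as well. MME and MYBL1 did not pass the test.

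B cell receptor and PI3K signalling genes were divided as well, with 6 of 28 members tested higher and 8 lower. The adaptor BLNK had 142, 137 and 131 CPM with EZH2i and 67.9, 67.9 and 68.6 with DOT1Li, against 71.8, 62.9 and 66.5 with DMSO, and the kinase LYN had 145, 149.6 and 132 with EZH2i and 62.6, 72.1 and 68.7 with DOT1Li, against 79.3, 84 and 81.5 with DMSO. The adaptor GRB2 was higher as well, and the log2 fold changes over DOT1Li were 1.004 ± 0.08 for BLNK, 1.07 ± 0.10 for LYN and 0.61 ± 0.06 for GRB2 (SE; edgeR, adjusted p = 1.13e-13, 1.02e-11 and 6.33e-11). Lower with EZH2i were the kinases SYK (-0.30) and BTK (-0.49), the lipid kinase subunit PIK3CD (-0.41), the receptor chain CD79A (-0.38) and the exchange factors VAV1 (-0.25) and RASGRP3 (-0.97). Of the pan-B surface genes CD24 was higher (0.96), while the inhibitory receptor CD22 (-0.75) and the scaffold BANK1 (-1.30) were lower. MS4A1, PAX5 and EBF1 were higher by 0.28, 0.37 and 0.34 (edgeR, adjusted p = 0.0341, 0.00465 and 0.000111), and MS4A1 lost the call when any library but DOT1Li replicate 1 was left out.

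The interferon response list had the highest share of lower members among the lists with at least 7 tested. Interferons signal from receptors at the cell surface to transcription factors that bind interferon-stimulated response elements and switch on antiviral genes. Of 49 members tested 32 were lower with EZH2i than with DOT1Li and 1 was higher, against 8.48% and 10.6% of all genes, and the median log2 fold change was -0.67. With each library left out in turn 26 to 30 members were lower. The list was chosen with earlier results of these data known. Against DMSO, 25 members were lower and 4 higher with EZH2i, beside 9.04% and 13% of all genes. With DOT1Li 2 were lower and 8 higher, beside 2.12% and 4.03% of all genes. The summed level of the list was 963 to 995 CPM with EZH2i and 1320 to 1380 CPM with DOT1Li, against 1200 to 1210 CPM with DMSO, without overlap.

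Several of these genes are shown with their promoters, because their response elements are the known route of interferon control; they were picked after the search, from lower members that held a match. The sequences are RefSeq's (GRCh38.p14), 250 bases before to 50 after the gene start, written 5′ to 3′ on the gene's strand, with matches to the core GAAANNGAAA or its reverse TTTCNNTTTC in capitals.
OAS3, chr12:112938224-112938523, plus strand: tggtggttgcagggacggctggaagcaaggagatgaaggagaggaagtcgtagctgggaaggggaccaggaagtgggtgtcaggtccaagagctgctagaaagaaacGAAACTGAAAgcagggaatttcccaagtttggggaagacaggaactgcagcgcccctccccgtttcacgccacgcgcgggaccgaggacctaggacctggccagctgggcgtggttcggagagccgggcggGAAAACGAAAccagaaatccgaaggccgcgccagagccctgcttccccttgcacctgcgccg
LGALS3BP, chr17:78979874-78980173, minus strand: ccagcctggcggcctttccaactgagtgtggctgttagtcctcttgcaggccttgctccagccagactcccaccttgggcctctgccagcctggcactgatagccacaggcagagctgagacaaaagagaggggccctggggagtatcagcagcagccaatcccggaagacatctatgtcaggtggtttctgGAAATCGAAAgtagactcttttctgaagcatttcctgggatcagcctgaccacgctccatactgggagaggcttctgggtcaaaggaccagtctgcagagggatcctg
GBP4, chr1:89198893-89199192, minus strand: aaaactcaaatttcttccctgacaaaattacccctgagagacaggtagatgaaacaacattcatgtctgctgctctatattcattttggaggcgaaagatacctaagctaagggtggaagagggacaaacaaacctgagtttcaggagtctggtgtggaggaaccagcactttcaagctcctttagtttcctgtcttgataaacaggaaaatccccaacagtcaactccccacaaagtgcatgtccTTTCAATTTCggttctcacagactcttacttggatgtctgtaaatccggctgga
GBP1, chr1:89065159-89065458, minus strand: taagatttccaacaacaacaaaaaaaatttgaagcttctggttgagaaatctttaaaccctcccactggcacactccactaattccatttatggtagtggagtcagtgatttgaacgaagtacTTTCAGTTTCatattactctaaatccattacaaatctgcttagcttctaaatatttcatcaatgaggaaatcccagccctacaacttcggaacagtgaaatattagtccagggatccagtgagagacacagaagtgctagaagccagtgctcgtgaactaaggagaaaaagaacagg
MX1, chr21:41420308-41420607, plus strand: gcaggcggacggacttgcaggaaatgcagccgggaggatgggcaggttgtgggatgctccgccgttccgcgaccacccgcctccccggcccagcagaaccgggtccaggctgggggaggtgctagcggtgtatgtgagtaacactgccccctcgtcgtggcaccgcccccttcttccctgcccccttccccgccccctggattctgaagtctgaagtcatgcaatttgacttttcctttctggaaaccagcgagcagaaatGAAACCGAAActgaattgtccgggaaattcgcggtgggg
A promoter entry was found for 26 of the 32 lower members, and 16 of the 26 (61.5%) held the core on either strand, against 996 of all 27305 promoters of the same length (3.65%). Members that were not called held it too, 8 of the 10 with an entry. Whether the core sets the lower members apart from the rest of the list was not tested. No match lay in the windows of the other lower members with an entry, OAS1, HERC6, XAF1 and SAMD9L among them. Of the whole list 36 of 49 members had an entry and 24 held the core; entries were too few, there and among the 16 members not called, for a share to be read. A match is a string of letters, not a bound site. Among all protein-coding genes lower with EZH2i, 630 of the 1052 with an entry had a CpG-rich promoter (59.9%; over 55% G and C and an observed-to-expected CpG ratio above 0.65), against 7694 of 10913 protein-coding genes tested (70.5%). Of protein-coding genes higher with EZH2i 1380 of 1786 had an entry, and 1048 of them were CpG-rich (75.9%). Of those higher by 2-fold or more 303 of 439 had an entry, and 214 of them were CpG-rich (70.6%). For protein-coding genes lower by 2-fold or more 252 of 348 had an entry, and 92 of them were CpG-rich (36.5%). A smaller part of these sets had an entry than of all protein-coding genes tested. The shares are a description and were not tested.

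OAS3, an oligoadenylate synthetase of the antiviral RNase L pathway, had 0.863, 1.26 and 1.17 CPM with EZH2i and 9.92, 9.16 and 8.62 with DOT1Li, against 5.22, 6.13 and 4.84 with DMSO. Its log2 fold change over DOT1Li was -3.05 ± 0.29 (SE; edgeR, adjusted p = 9.77e-11), and against DMSO it fell by 2.27 with EZH2i and rose by 0.78 with DOT1Li (adjusted p = 6.79e-07 and 0.0194). The interferon-induced GTPase GBP4, named after its values were seen, had 0.604, 0.148 and 0.326 CPM with EZH2i and 6.50, 7.88 and 4.87 with DOT1Li, against 5.06, 5.49 and 6.10 with DMSO. Its relative GBP1 had 2.33, 2.22 and 2.48 CPM with EZH2i and 15.3, 17.6 and 12.3 with DOT1Li, against 11.7, 12.1 and 9.04 with DMSO. For both GTPases EZH2i lay below DMSO, and the change of DOT1Li against DMSO did not pass the test (0.21 and 0.47 on the log2 scale). The log2 fold changes over DOT1Li were -4.18 and -2.68 (edgeR, adjusted p = 1.65e-09 and 8.4e-09). The secreted glycoprotein LGALS3BP was lower by 1.59 ± 0.16 and OAS1 by 2.27 ± 0.26 on the log2 scale (SE; edgeR, adjusted p = 5.76e-10 and 1.25e-09).

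In other members DOT1Li stood above DMSO. MX1, an antiviral dynamin-like GTPase, had 7.16, 7.04 and 8.15 CPM with EZH2i and 19.6, 22.2 and 17.6 with DOT1Li, against 6.36, 5.81 and 6.52 with DMSO. MX1 rose with DOT1Li by 1.67 on the log2 scale against DMSO (edgeR, adjusted p = 1.14e-05) and its change of 0.26 with EZH2i did not pass the test (adjusted p = 0.583). USP18, which removes ISG15 from proteins, and EPSTI1 behaved alike, rising by 2.64 and 1.92 with DOT1Li (adjusted p = 4.71e-07 and 0.000132). STAT2, IRF9, IRF7 and ISG15 did not pass the direct test. The member that was higher with EZH2i was IFITM2, at 2.50, 2.52 and 2.15 CPM with EZH2i and 0.489, 1.35 and 0.239 with DOT1Li; reads of IFITM2 can be shared with its close copies IFITM1 and IFITM3, so its level is uncertain. GBP5 had no counts in the 6 libraries.

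**Figure D3:**
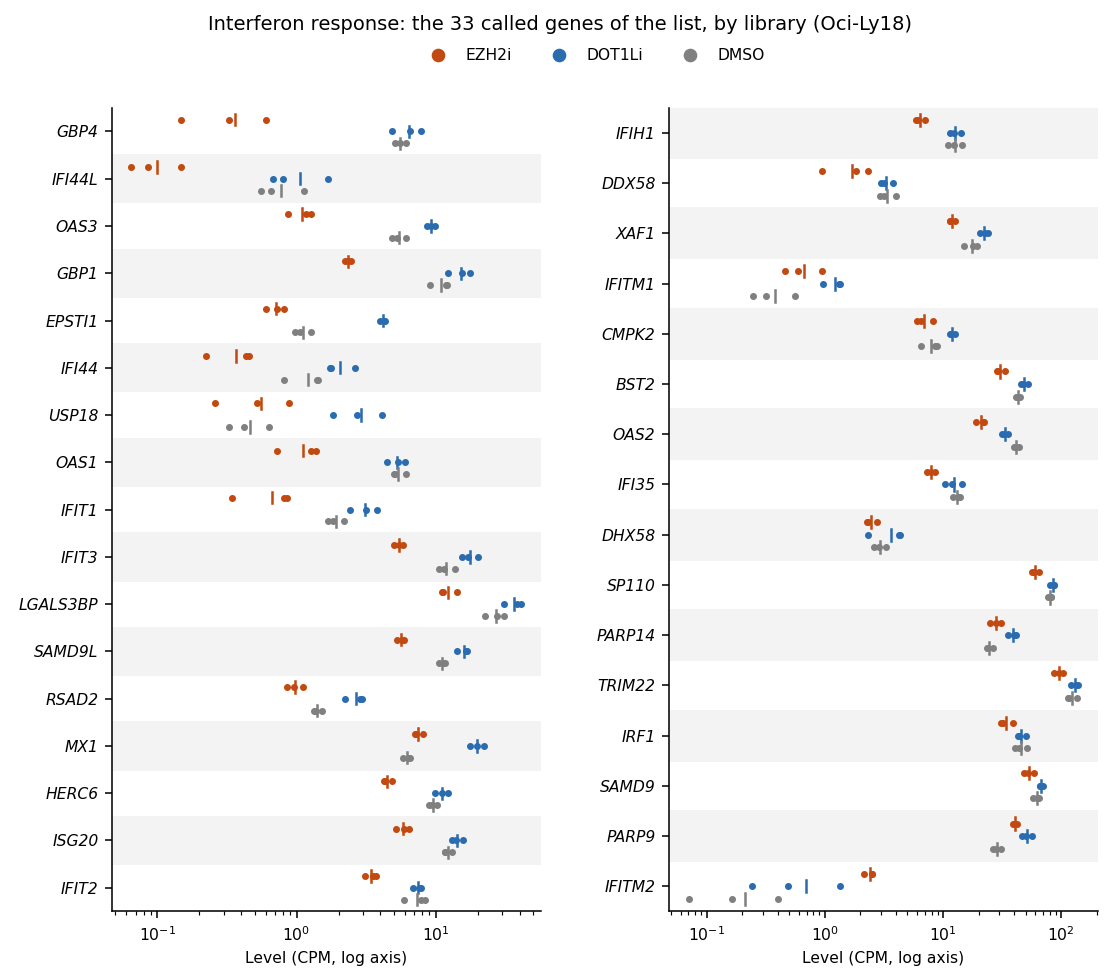
Levels (CPM, log axis) of the 33 called interferon response genes, ordered from the lowest log2 fold change (GBP4, -4.18) at top left to the highest (IFITM2, 1.76) at bottom right; points are libraries, ticks are group means, with EZH2i, DOT1Li and DMSO from top to bottom in each row. The EZH2i mean lies left of the DOT1Li mean in all rows but the last, though the libraries of DHX58 overlap. DMSO lies near DOT1Li for some genes (OAS1, IFIH1) and near EZH2i for others (MX1, USP18).

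The phagocyte NADPH oxidase makes superoxide and is also present in B cells. Of its genes 4 of 7 tested were lower with EZH2i and none was higher by edgeR (0 at an unadjusted p under 0.05 and with DESeq2), also with each library left out in turn. The other 3 had log2 fold changes above 0, up to 0.14. The catalytic subunit CYBB had 2.76, 2.37 and 2.28 CPM with EZH2i and 14.7, 15.4 and 10.2 with DOT1Li, against 12.6, 12.7 and 10.2 with DMSO (log2 fold change over DOT1Li -2.45 ± 0.22 SE; edgeR, adjusted p = 1.35e-11). The organiser NCF1 had 3.11, 4.22 and 3.26 CPM with EZH2i and 11.7, 14.9 and 10.7 with DOT1Li, against 10.8, 12.3 and 11.3 with DMSO, and shares reads with near-identical pseudogenes, so its level is uncertain. For CYBC1, a chaperone of the oxidase, the fall was 0.41 on the log2 scale against DOT1Li (edgeR, adjusted p = 5.45e-05). The myeloid marker list summed to 2.48 to 2.93 CPM with EZH2i and 4.07 to 5.38 CPM with DOT1Li, against 0.897 to 1.19 CPM with DMSO, without overlap. Of 13 myeloid markers 6, ELANE and FCN1 among them, had no counts in the 6 libraries, and of 6 tested 1 was called, the proteoglycan VCAN, at a log2 fold change over DOT1Li of -0.98 (adjusted p = 0.0134, edgeR). VCAN lost the call without DOT1Li replicate 1 or EZH2i replicate 2 or 3. The part of the myeloid markers in the oxidase result was not tested.

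Developmental genes that Polycomb silences in most tissues had more higher than lower calls with EZH2i. Of 84 such genes 49 could be tested, and 10 were higher with EZH2i than with DOT1Li and 3 lower, against 10.6% and 8.48% of all genes. The median log2 fold change was 0.08, with 26 members above 0 and 18 below. Against DMSO 18 members were higher with EZH2i and 6 with DOT1Li, beside 13% and 4.03% of all genes. Because low genes pass the filter only where some group expresses them, these counts do not speak for all 84. HOXA10 had 8.20, 10.9 and 9.98 CPM with EZH2i and 4.54, 5.41 and 5.27 with DOT1Li, against 2.12, 3.02 and 3.01 with DMSO, and SOX2 had 4.92, 4.96 and 5.22 with EZH2i and 3.29, 2.55 and 2.0 with DOT1Li, against 0.163, 0.716 and 0.421 with DMSO. Both transcription factors were above DMSO with both inhibitors and higher with EZH2i, without overlap (edgeR, adjusted p = 0.000197 and 0.0237). GATA4 was higher with EZH2i by 2.11 ± 0.39 on the log2 scale (SE; edgeR, adjusted p = 0.000108). WNT5A, PAX6 and BMP4 were lower, and WNT5A, a secreted signalling protein, fell with EZH2i and rose with DOT1Li against DMSO, by 0.88 and by 0.79 on the log2 scale (adjusted p = 4.79e-05 and 0.000128).

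Of 19 genes that Polycomb holds silent in germinal centre B cells 6 were higher with EZH2i and 5 lower, and these counts came to 3 each when single libraries were left out (higher without EZH2i replicate 2; lower without DOT1Li replicate 3, EZH2i replicate 1 or EZH2i replicate 2). TNFRSF21 was higher by 0.89 ± 0.12 and ABAT by 0.81 ± 0.11, and FCRL5 was lower by 1.73 ± 0.18 on the log2 scale (SE; edgeR, adjusted p = 1.06e-07, 1.31e-07 and 1.64e-10). FCRL5 rose with DOT1Li by 1.34 on the log2 scale against DMSO (edgeR, adjusted p = 1.73e-07). EZH2 itself had 252, 254 and 248 CPM with EZH2i and 238, 248 and 249 with DOT1Li, which overlapped (edgeR, adjusted p = 0.765), and DOT1L had 116, 111 and 114 with EZH2i and 88.5, 87.8 and 88.8 with DOT1Li (0.36 ± 0.08 SE; adjusted p = 0.000586). Both drugs block the enzymes' activity, so transcript levels do not check the labels. Of 13 PRC2 subunits 1 was called, the accessory subunit EPOP (0.72 ± 0.10 SE; edgeR, adjusted p = 5.3e-07).

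Genes of memory B cells and of exit from the germinal centre were split, with 5 of 18 tested members higher and 4 lower. SKI, a corepressor of TGF-beta signalling, had 5.95, 5.11 and 4.83 CPM with EZH2i and 0.978, 2.18 and 2.16 with DOT1Li, against 0.979, 1.83 and 2.03 with DMSO. SKI was higher with EZH2i than with DOT1Li or DMSO, without overlap, and its log2 fold change over DOT1Li was 1.59 ± 0.23 (SE; edgeR, adjusted p = 4.38e-07). The counts were 3 higher and 2 lower without DOT1Li replicate 2, and 2 lower without EZH2i replicate 1 or 3. Among 18 migration and adhesion receptors 3 were higher and 5 lower, and the 5 became 3 without EZH2i replicate 1. The integrin chain ITGB2 was higher by 1.93 ± 0.23 and its partner ITGAL lower by 0.53 ± 0.09 on the log2 scale (SE; edgeR, adjusted p = 3.98e-09 and 1.15e-05).

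**Figure D4:**
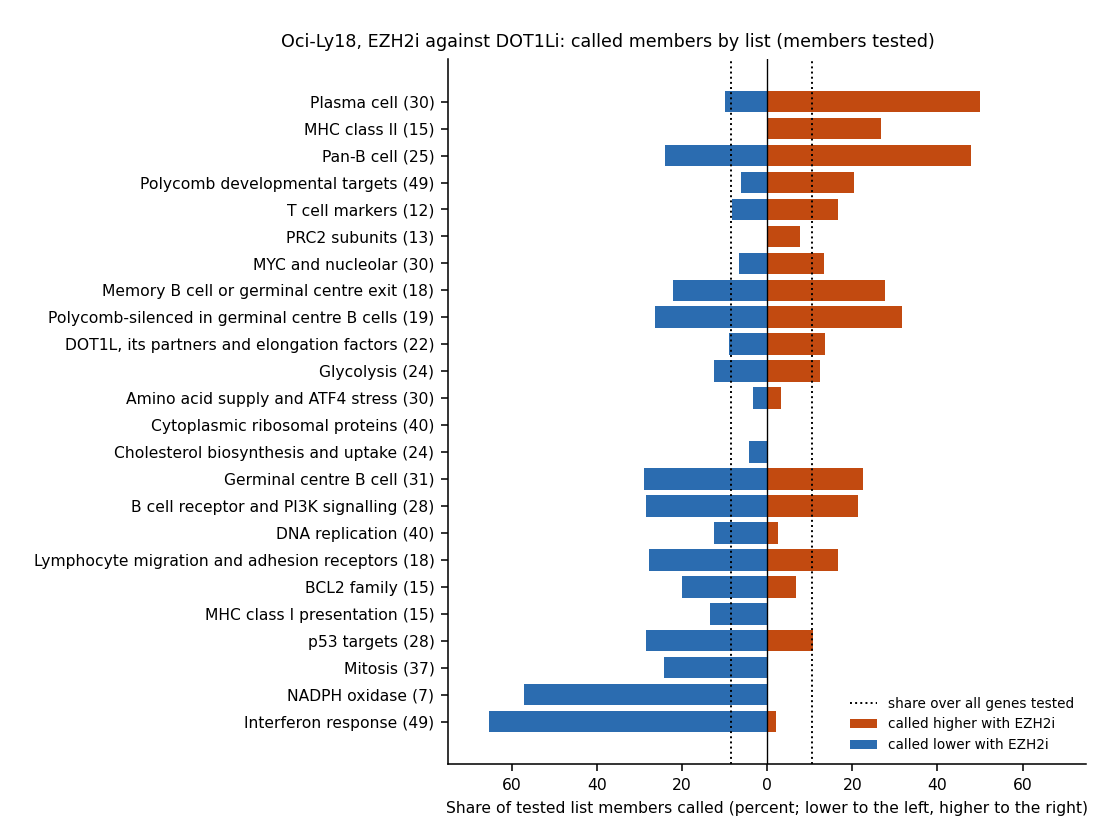
Share of the tested members of each gene list (number tested in brackets; lists with at least 7) that were called higher with EZH2i than with DOT1Li (red, to the right) or lower (blue, to the left); dotted lines mark the shares over all genes, 10.6% and 8.48%. Plasma cell and pan-B cell genes reach furthest to the right, with 15 of 30 and 12 of 25, and interferon genes furthest to the left, with 32 of 49.

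Among growth genes, MYC had 790.5, 816 and 832 CPM with EZH2i and 495, 479 and 511 with DOT1Li, against 498, 510.0 and 517 with DMSO. EZH2i stood above both DOT1Li and DMSO (log2 fold change over DOT1Li 0.71 ± 0.09 SE; edgeR, adjusted p = 2.56e-08). Of 30 MYC and nucleolar genes 4 were higher and 2 lower, near the 10.6% and 8.48% of all genes; the 4 became 1 without DOT1Li replicate 1, DOT1Li replicate 3 or EZH2i replicate 2, and the 2 became 0 or 1 when any library but DOT1Li replicate 1 was left out. Of 40 cytoplasmic ribosomal protein genes, none was called by edgeR (1 at an unadjusted p under 0.05) or by DESeq2, while 11 were higher when the fit used only the 6 libraries. The median log2 fold change of the 40 was 0.09, with 37 above 0 and 3 below. In 22 of the 40 the EZH2i libraries lay wholly above those with DOT1Li, against 20.4% of all genes. Of 37 mitosis genes 9 were lower and none higher by edgeR (1 higher at an unadjusted p under 0.05, 0 with DESeq2), with a median log2 fold change of -0.18. The mitosis count was 4 without DOT1Li replicate 2 and 22 when the fit used only the 6 libraries. HMMR had 134, 135 and 134 CPM with EZH2i and 191, 217 and 173 with DOT1Li, against 197, 209 and 194 with DMSO (edgeR, adjusted p = 2e-06). Of 40 DNA replication genes 5 were lower and 1, the thymidine kinase TK1, higher (0.53 ± 0.10 SE; edgeR, adjusted p = 8.54e-05); the 5 became 1 without DOT1Li replicate 2 or EZH2i replicate 1, 2 without DOT1Li replicate 3 and 3 without EZH2i replicate 2. In metabolism, 3 of 24 glycolysis genes were higher and 3 lower, also near those shares, and of 24 cholesterol genes the reductase TM7SF2 was called, lower by 0.51 ± 0.11 (SE; edgeR, adjusted p = 0.000375). Of 30 amino acid and ATF4 stress genes the serine synthesis enzyme PSPH was lower (-0.51 ± 0.07 SE; edgeR, adjusted p = 3.46e-08) and CEBPB higher, a call lost without DOT1Li replicate 2 or 3 or EZH2i replicate 1 or 2.

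Of the genes that set survival, 3 of 15 in the BCL2 family were lower and 1, HRK, was higher. BMF, which promotes apoptosis by binding BCL2, had 45.3, 35 and 43.2 CPM with EZH2i and 128, 108 and 122 with DOT1Li, against 102, 93.5 and 94.8 with DMSO (log2 fold change over DOT1Li -1.53 ± 0.13 SE; edgeR, adjusted p = 2.03e-12). The pro-apoptotic BCL2L11 (BIM) and the protective BCL2L1 were lower by 0.47 and 0.42 in log2 units (edgeR, adjusted p = 0.000136 and 9.91e-05), and BCL2 itself did not pass the test (0.10, adjusted p = 0.673). HRK was no longer called without DOT1Li replicate 2 or EZH2i replicate 1. Of 28 p53 targets 8 were lower and 3 higher, and the 8 became 5 without DOT1Li replicate 3. CDKN1A, the cell cycle inhibitor p21, was lower by 0.52 (edgeR, adjusted p = 0.0313) in overlapping libraries, and lost the call without DOT1Li replicate 1 or 3 or EZH2i replicate 1 or 2. Of 15 MHC class II genes 4 were higher and none was lower by edgeR (0 at an unadjusted p under 0.05 and with DESeq2), with CIITA, their master regulator, at 171, 165 and 159 CPM with EZH2i and 137, 137 and 131 with DOT1Li (edgeR, adjusted p = 0.0324). The list's count was 1 without any 1 of the DOT1Li libraries or without EZH2i replicate 2, and 2 without EZH2i replicate 1; CIITA lost its call when any library but EZH2i replicate 3 was left out.

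Each list of markers of another cell type held members without a count in the 6 libraries. Of 17 T cell markers 8, CD3D, CD3E and CD3G among them, had no count in the 6 libraries, and the summed level of the list was 113 to 119 CPM with EZH2i and 91.3 to 101 CPM with DOT1Li, against 98.4 to 109 CPM with DMSO. TRAC, the constant region of the T cell receptor alpha chain, was higher with EZH2i at 19, 19.8 and 20.2 CPM, against 5.31, 5.86 and 7.03 CPM with DOT1Li and 12.6, 15 and 13.6 with DMSO (log2 fold change over DOT1Li 1.70 ± 0.17 SE; edgeR, adjusted p = 1.5e-10), and the kinase LCK was lower by 1.18 ± 0.14 (adjusted p = 5.14e-09). The fibroblast and endothelial list summed to 5.85 to 8.02 CPM with EZH2i and 14.6 to 17.6 CPM with DOT1Li, against 8.13 to 8.51 CPM with DMSO, with 3 of 6 tested members lower (COL1A2, PECAM1 and PDGFRB) and COL1A1 higher. COL3A1, LUM, CDH5 and KDR had no counts in the 6 libraries. The neuronal list summed to 37.9 to 43 CPM with EZH2i and 69.8 to 72.6 CPM with DOT1Li, against 41.5 to 44.2 CPM with DMSO, nearly all of it MAP2. The epithelial list summed to 8.15 to 9.41 CPM with EZH2i and 5.67 to 7.55 CPM with DOT1Li, against 3.18 to 4 CPM with DMSO, without overlap; of 5 tested members KRT18 was higher, and EPCAM and KRT7 had no counts in the 6 libraries. The list of NK and cytotoxic markers summed to 18.4 to 21.9 CPM with EZH2i and 15.4 to 17.3 CPM with DOT1Li, against 15 to 15.4 CPM with DMSO. The part of these markers in the results was not tested.

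The last comparison asks whether the difference between the inhibitors in Oci-Ly18 is the one seen in the other lines. Of the 17749 genes 583 had a higher difference (EZH2i minus DOT1Li) in Oci-Ly18 than the mean of Oci-Ly7, Oci-Ly8 and SUDHL6 (3.28%), and 569 a lower one (3.21%; edgeR, adjusted p under 0.05). Within Oci-Ly7, EZH2i gave 923 genes above DOT1Li (5.20%) and 404 below (2.28%). The counts were 1395 (7.86%) and 1127 (6.35%) for Oci-Ly8, and 1541 (8.68%) and 945 (5.32%) for SUDHL6. TNFRSF13C had the log2 fold change 2.81 in Oci-Ly18, 0.07 in Oci-Ly7, -0.53 in Oci-Ly8 and 0.26 in SUDHL6, a difference of 2.87 ± 0.19 (SE; edgeR, adjusted p = 1.91e-14). ADGRE5 (3.85 ± 0.28), NME4, a mitochondrial nucleoside diphosphate kinase (1.92 ± 0.14), and the transcription factor LEF1 (1.26 ± 0.09) were the other 3 with the smallest adjusted p among higher genes. LEF1 had 197, 202 and 188 CPM with EZH2i and 72.2, 79.7 and 78.7 with DOT1Li in Oci-Ly18, against 100.1, 95.9 and 94.6 with DMSO, and its log2 fold change was -0.01 in Oci-Ly7, 0.22 in Oci-Ly8 and 0.07 in SUDHL6.

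Among genes with a lower difference, RGMB, a co-receptor of bone morphogenetic proteins, was lower with EZH2i in Oci-Ly18 by 1.38 on the log2 scale. Its log2 fold change was positive in the others, 0.42 in Oci-Ly7, 0.59 in Oci-Ly8 and 0.24 in SUDHL6, and passed the test in Oci-Ly8 alone (edgeR, adjusted p = 0.000524). The lines differed by -1.79 ± 0.12 (SE; edgeR, adjusted p = 6.91e-15). RGMB had 38.8, 33.2 and 36.8 CPM with EZH2i and 95, 82.2 and 105 with DOT1Li in Oci-Ly18, against 61.7, 54.7 and 61.3 with DMSO. WASF1, an actin regulator, APOL6 and the adaptor GAPT differed by -0.95 ± 0.08, -1.71 ± 0.15 and -2.58 ± 0.23 (SE; edgeR, adjusted p = 9.21e-12, 1.32e-11 and 1.62e-11). Of 49 interferon genes 23 had a lower difference in Oci-Ly18 and 1 a higher one, and their median log2 fold change was -0.67 in Oci-Ly18, -0.05 in Oci-Ly7, 0.23 in Oci-Ly8 and -0.10 in SUDHL6. In Oci-Ly8 12 of them were higher and 7 lower with EZH2i than with DOT1Li. OAS3 had a log2 fold change of -0.34 in Oci-Ly7, -0.19 in Oci-Ly8 and -0.29 in SUDHL6, and its difference was -2.77 ± 0.31 (SE; edgeR, adjusted p = 2.15e-08).

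For CYBB no difference between lines passed the test: it was lower with EZH2i in all 4 lines, by 2.45 in Oci-Ly18, 1.82 in Oci-Ly7, 1.16 in Oci-Ly8 and 2.46 in SUDHL6 on the log2 scale, with a difference of -0.64 ± 0.36 (SE; edgeR, adjusted p = 0.396). Its level in SUDHL6 was low, averaging 0.179 CPM with EZH2i and 1.03 CPM with DOT1Li. Plasma cell genes had 15 higher and 3 lower members in Oci-Ly18, 0 and 2 in Oci-Ly7, 16 and 0 in Oci-Ly8 and 9 and 1 in SUDHL6, and 5 of the 30 had a higher and 1 a lower difference in Oci-Ly18. IRF4 and XBP1 were among the 5, with differences of 0.95 ± 0.15 and 1.01 ± 0.14 (SE; edgeR, adjusted p = 3.87e-05 and 1.38e-06). For AIF1L, COL1A2, DDX60, DEPP1, FCRL2 and FKBP10 a group of at least 1 other line had no counts, so the fitted difference between lines depends on the prior count and is not read here.

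**Figure D5:**
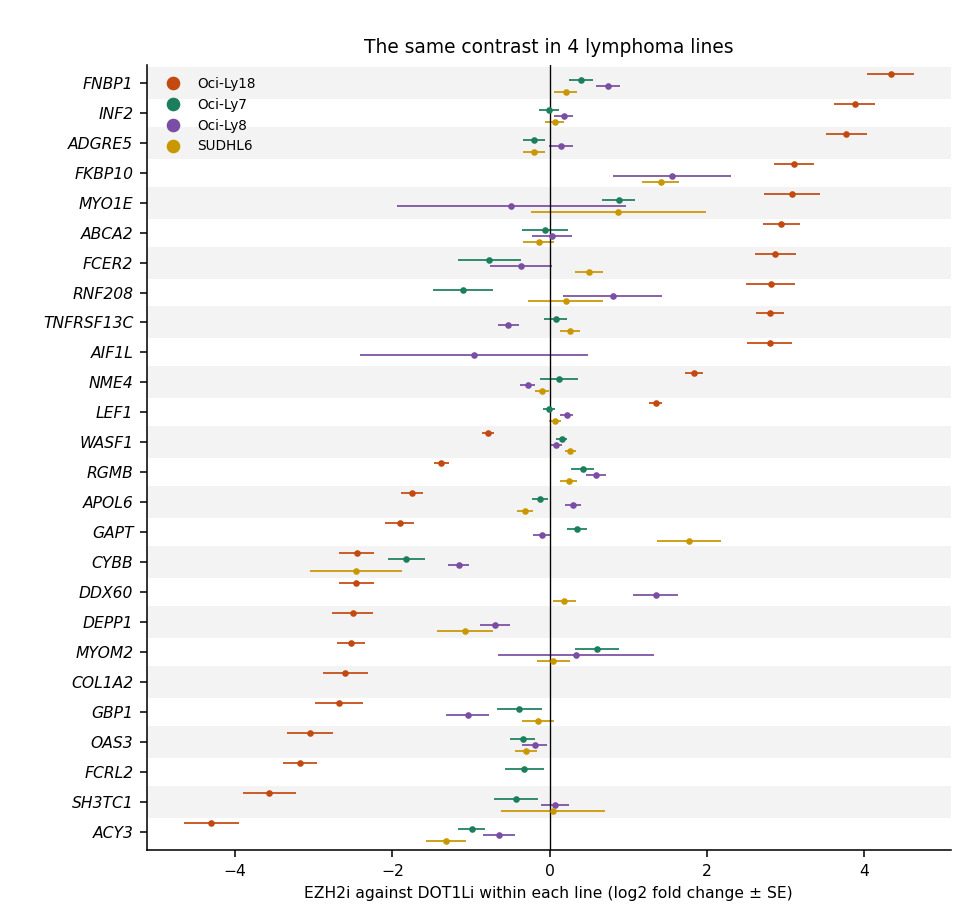
Log2 fold change, EZH2i over DOT1Li, with its SE (horizontal axis) in Oci-Ly18, Oci-Ly7, Oci-Ly8 and SUDHL6 for the genes with the largest differences in Oci-Ly18 and the 8 named for a difference between lines (vertical axis); a line in which 1 of the groups had no counts is not drawn. Oci-Ly18 stands apart from lines near 0 for INF2 (3.88) and ADGRE5 (3.77), while CYBB is lower in all 4 lines. Levels differed between lines too. With DOT1Li, INF2 averaged 1.02 CPM in Oci-Ly18, against 70.2 in Oci-Ly7, 112 in Oci-Ly8 and 88 in SUDHL6. ADGRE5 averaged 0.848 CPM with DOT1Li in Oci-Ly18, against 19.9, 18.6 and 23.3 CPM in the other lines in that order.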

How the data were processed

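Libraries were stranded and made from poly(A) RNA, per the labels' protocols. The deposited table holds raw read counts per gene, made by the authors; STAR, DESeq2 and GRCh38 (hg38) are named in the submitters' processing notes, while versions, the counting tool, its strand setting and the annotation are not stated in those sources. The report gives the range of library depths.

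From these counts, genes were filtered with filterByExpr over the 16 groups and tested with edgeR 4.0.16 (quasi-likelihood, TMM factors, 48 libraries, 32 residual degrees of freedom, Benjamini-Hochberg adjustment over all 17749 genes, threshold 0.05) in R 4.3.3. The fit across all libraries shares 1 estimate of spread. SE is the size of the log2 fold change divided by the square root of F. CPM used TMM factors, with a prior count of 2 for log2 CPM. Gene positions and types are those of the deposited table. The script was tested on simulated data. DESeq2 1.42.0, other size factors, no filter, smaller fits, a replicate block and left-out libraries were tried. No library repeated another within sampling noise.

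Named genes were a panel, the 10 highest and 10 lowest protein-coding genes without overlap and averaging a log2 CPM of 1 or more, up to 3 called members with the smallest adjusted p per list, and 4 genes in each direction for the line difference; other called members named with their list, and the genes so marked, were chosen after their values were seen. The members, lists and tests were chosen with earlier results of these data known. Some results are not reported here.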

Additional observations from a re-analysis of the deposited data

Results flagged for a closer look

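Among the genes named for the comparison, 50 differed between lines by a test of the difference itself, that is, the log2 fold change of EZH2i over DOT1Li in Oci-Ly18 minus the mean of the same contrast in Oci-Ly7, Oci-Ly8 and SUDHL6 (edgeR, adjusted p under 0.05); 8 of them were named for this difference. Values below are these differences on the log2 scale. Among genes chosen as the largest changes in Oci-Ly18, which favours a difference from other lines, they were 3.00 for ABCA2, 3.85 for ADGRE5, 3.08 for FCER2, 3.89 for FNBP1, 3.80 for INF2, 2.66 for MYO1E, 2.84 for RNF208 and 2.87 for TNFRSF13C. On the low side they were -3.32 for ACY3, -2.16 for GBP1, -2.85 for MYOM2, -2.77 for OAS3 and -3.46 for SH3TC1. Levels also differed between lines for some of these genes. With DOT1Li, FNBP1 averaged 1.22 CPM in Oci-Ly18, against 162 in Oci-Ly7, 124 in Oci-Ly8 and 295 in SUDHL6. ABCA2 was low in all lines, at 1.7 CPM in Oci-Ly18 against 1.77, 3.83 and 5.86 CPM in the same order. The fitted value of -3.05 for DEPP1 depends on the prior count, since the DOT1Li group of Oci-Ly7 had no counts; its log2 fold changes were -2.51 in Oci-Ly18, -0.69 in Oci-Ly8 and -1.08 in SUDHL6, all in 1 direction.

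In the other genes named for the line difference, the values were 1.26 for LEF1, 1.92 for NME4, -1.71 for APOL6, -2.58 for GAPT, -1.79 for RGMB and -0.95 for WASF1. Interferon genes gave -1.62 for LGALS3BP and -1.92 for OAS1. Plasma cell genes gave 0.67 for ERN1, 0.95 for IRF4 and 1.01 for XBP1. B cell, germinal centre and receptor signalling genes gave 0.88 for BLNK, 0.82 for LYN, 0.60 for GRB2, 1.48 for KLHL6, 0.50 for MEF2C, 2.06 for RGS13 and 0.52 for CIITA. Memory, adhesion and Polycomb-silenced genes gave 1.22 for SKI, 1.72 for ITGB2, 0.45 for TNFRSF21 and -1.24 for FCRL5.

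Of the NADPH oxidase genes NCF1 gave -0.999. Growth, survival and metabolism genes gave 0.40 for MYC, 0.59 for TK1, -0.40 for HMMR, -1.13 for BMF, -0.41 for RRM2B, 1.42 for ENO2, -0.46 for PSPH and -0.43 for TM7SF2. Of the DOT1L partners MLLT1 gave 0.29. Markers of other cell types gave 1.67 for TRAC, 0.59 for ZAP70, -0.55 for LCK and -1.17 for MAP2. The value for ENO2 averages in Oci-Ly8, where it had 0.0634 CPM with EZH2i and 0.169 with DOT1Li (log2 fold change -1.525 ± 0.976 SE). Other genes listed above were barely expressed in another line too. Among them were RGS13, MYO1E, MYOM2, FCRL5 and TRAC in Oci-Ly8, and RNF208 and SH3TC1 in SUDHL6. The size of their line differences is uncertain. No group had enough libraries for a test of single libraries far from the others.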

How the results depend on the processing

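No result listed for the alternatives changed direction in any of them, and the all-gene median log2 fold change lay between -0.011 and 0.005. Of 97 named genes called in the direct comparison 81 were called in every setting that tested them. The other 16 lost the call in some, mostly when 1 library was left out. DESeq2 and the fit on the 12 Oci-Ly18 libraries each tested 96 of the 97, and the fit on the 6 libraries 95. Counts of called genes moved past 1.5 times as follows; the cause was not tested. Fitted on the 12 Oci-Ly18 libraries alone, 2528 genes were lower with EZH2i than with DOT1Li (1434 of the 1506 among them), 2784 were lower with EZH2i than with DMSO, and 1102 higher and 905 lower with DOT1Li than with DMSO. On the 6 libraries alone 2274 were lower in the direct comparison, 1392 of the 1506 among them. Without the 2 Oci-Ly8 libraries low in long transcripts, 652 genes were lower with DOT1Li than with DMSO. Their absence moved the direct comparison by less, to 2340 genes higher and 2009 lower. With the replicate number as a block, 656 genes were lower with DOT1Li than with DMSO, and 881 higher and 868 lower in the difference between lines. The block moved the direct comparison by less, to 2326 genes higher and 1946 lower. Deviations of libraries with the same number correlated by 0.03 to 0.07 between EZH2i and DOT1Li, each the best match of its library, which is a hint from the data and not the design.

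With 1 library left out, the direct comparison called 1502 to 1610 genes higher and 1152 to 1237 lower, and 425 to 477 higher and 405 to 440 lower by 2-fold. EZH2i against DMSO gave 1857 to 1928 higher and 1187 to 1350 lower, DOT1Li against DMSO 482 to 541 and 236 to 285, and the difference between lines 433 to 633 and 428 to 595. Genes under a few CPM are limited by counts, and absence of a call there is not absence of a change.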

Other observations

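Among long noncoding RNAs lower calls outnumbered higher ones: 162 of 2669 were lower with EZH2i (6.07%) and 67 higher (2.51%), and by 2-fold or more 111 were lower and 33 higher. The genes named here were chosen after their values were seen. The labels do not state whether counting used strand, so reads of overlapping genes cannot be told apart. PCAT14 had 0.604, 0.445 and 0.652 CPM with EZH2i and 7.34, 6.31 and 5.27 with DOT1Li, against 1.47, 1.99 and 1.12 with DMSO (log2 fold change over DOT1Li -3.46 ± 0.37 SE; edgeR, adjusted p = 2.19e-09). LINC01134 had 3.36, 2.96 and 2.54 CPM with EZH2i and 15.7, 12.9 and 13.1 with DOT1Li, against 4.49, 4.54 and 4.0 with DMSO (-2.24 ± 0.20 SE; adjusted p = 1.53e-12). MIR193BHG, a host transcript of microRNAs, ran the other way with 5.87, 5.63 and 5.15 CPM with EZH2i and 1.54, 0.601 and 1.92 with DOT1Li, against 6.69, 3.50 and 5.54 with DMSO, and fell with DOT1Li by 1.96 on the log2 scale against DMSO (edgeR, adjusted p = 4.83e-06). MIAT was higher with EZH2i by 1.5 ± 0.20 on the log2 scale (SE; edgeR, adjusted p = 6.47e-08).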
